A study of Mus musculus with 2 samples.

Results

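The 45 genes described here are imprinted genes, chosen by name from loci known for expression from 1 parental allele in mouse. They were taken from a table of 51905 genes and 128603 transcripts measured in newborn mouse brain, in which they had 295 transcripts. The members fall in 19 loci on 11 chromosomes. Of the 45, 26 are known to be expressed mainly from the paternal allele and 17 mainly from the maternal allele, in at least some mouse tissues. Whether each of these labels holds in newborn brain was not measured. The other 2, Grb10 and Gnas, use different alleles at different promoters. The choosing rule used no measured value, although earlier results of these data were known when the members were listed.

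The study asked what a deletion of the microRNA gene Mir125b-2 does in mouse brain. Brains of C57BL/6 mice were taken at postnatal day 0. The wild-type mice (m+/p+) carried both copies of Mir125b-2, and the maternal knockout mice (m-/p+) lacked the copy inherited from a heterozygous mother and kept the paternal copy. The deletion was a conventional one, carried by every cell. Whether the wild-type pups were littermates was not stated. RNA of 6 brains per genotype was pooled into 1 library, so the table holds 1 value per transcript and genotype. Differences between the 2 libraries therefore have no replicate check, no test was possible, and nothing below is called changed. The sex of the pups was not used here.

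In genomic imprinting, marks set on the DNA in the egg or sperm keep 1 parental copy of a gene silent in the offspring. Imprinted genes lie in clusters, in which a methylated control region often sets the expression of several genes at once, commonly through a long non-coding RNA. Many of them act on growth, and many are strongly expressed in neurons and in the hypothalamus. The table holds the summed RNA of both alleles, so it shows the level of an imprinted gene but not the allele it came from.

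The deleted microRNA is shown first with its closest relatives, because a match to its seed is the way a microRNA of this family could meet a transcript of an imprinted gene. Capitals mark the seed, bases 2 to 8 of the mature RNA. The sequences are from RefSeq (GRCm38.p6). Mir125b-2 lies at chr16:77646279-77646300 (plus strand, 5p arm), and the 5p arm of Mir125b-1, a copy on chromosome 9, has the same 22 bases.
miR-125b-5p: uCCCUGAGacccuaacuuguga
miR-125b-2-3p: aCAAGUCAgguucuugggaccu
miR-125a-5p: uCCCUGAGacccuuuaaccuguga
The 5p arms share the seed CCCUGAG, and the 3p arm of Mir125b-2 has the seed CAAGUCA. The table cannot check the deletion, because the 71-base hairpin of Mir125b-2 was listed at the floor value of 1e-05 FPKM in both libraries, as were the hairpins of Mir125b-1 and Mir125a.

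The complement of the 5p seed is CTCAGGG on the transcript strand. It was searched in the annotated 3′UTR of the most abundant protein-coding transcript of each member with a mean of at least 1 FPKM. Of 33 such members with a 3′UTR in the annotation, 2 held it, or 6.06%, against 14.3% of 12580 protein-coding genes with the same minimum. The 2 were Kcnk9 and Grb10. The sites are shown with the match in capitals, Kcnk9 at chr15:72510845-72510851 and Grb10 at chr11:11931069-11931075, both on the minus strand of GRCm38.
Kcnk9: gaacttgtcaagCTCAGGGgatgctttgtc
Grb10: taaaggggacagCTCAGGGttgttttggag
Kcnk9 was at 13.9 FPKM in the wild-type library and 10.6 in the knockout library, and Grb10 at 28.4 and 30.9. The 2 genes with a match thus stood on opposite sides of equality. The Kcnk9 site is in a 3′UTR of 11030 bases that the deposited transcript model of Kcnk9 leaves out, since that model ends at position 72512119. A match is a description of these letters and not a binding site.

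Levels are given in FPKM, fragments scaled to transcript length and to the mapped reads of the library, a scale that allows genes to be compared per length. A gene's level is the sum over its transcripts. Of the 45 members, 40 reached a mean of at least 1 FPKM over both libraries, the minimum for a comparison. The highest was Nnat, which encodes neuronatin, a small membrane protein of developing neurons, at 1419 FPKM in the wild-type and 1435 in the knockout library. It ranked 92 and 84 among all genes. Gnas, which encodes the G protein subunit that couples receptors to adenylyl cyclase, followed at 447 and 454 FPKM. Then came Snrpn at 136.6 and 140.6, Inpp5f at 124.4 and 120.3, and Mest at 96.5 and 122.1. The lowest of the 40 was Dio3 at 1.73 and 2.05. The order of the leading members was nearly the same in both libraries, the exception among the first 5 being Mest, which was below Inpp5f in wild type and above it in the knockout.

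**Figure D1:**
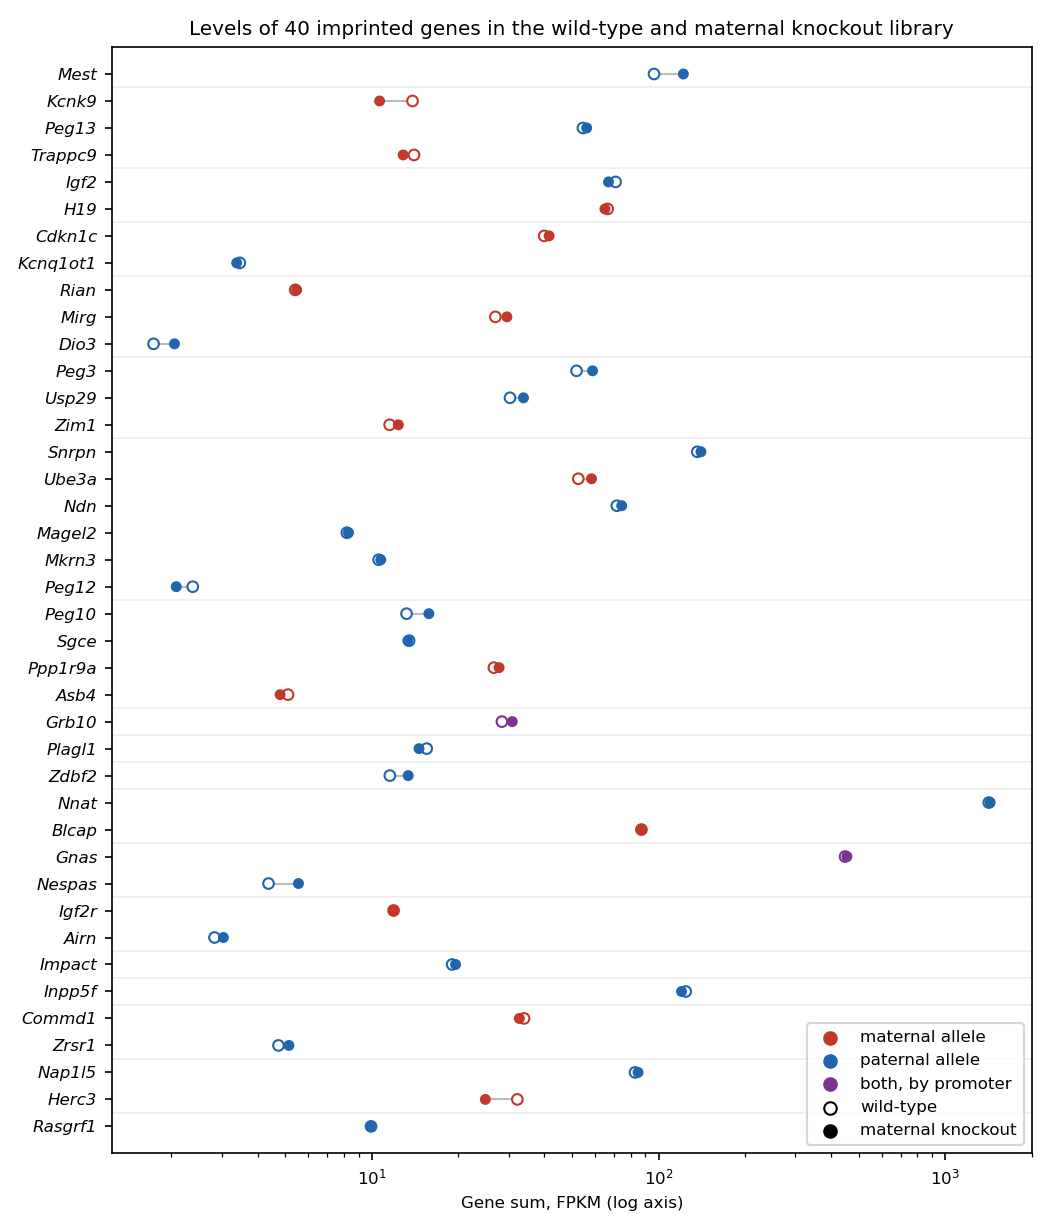
Level of the 40 members with a mean of at least 1 FPKM, as gene sums on a log axis, in the wild-type library (open circles) and the maternal knockout library (filled circles), coloured by the known expressed allele and ordered by locus. The members span from about 1.73 FPKM (Dio3) to 1435 FPKM (Nnat), and for most of them both circles nearly coincide.

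Most imprinted genes had nearly the same level in both libraries. Of the 40, 29 lay within 1.1-fold and 36 within 1.2-fold. The number above 1.2-fold in the knockout was 2, Mest and Nespas, against 9.74% of the 15706 genes with the same minimum. The number below 1/1.2-fold was also 2, Kcnk9 and Herc3, against 10.0% of all genes. Both genes above were paternally expressed members and both genes below were maternally expressed members. Over all genes, 58.9% lay within 1.1-fold and 80.3% within 1.2-fold, against 72.5% and 90.0% of the members. Among genes with a mean of at least 5 FPKM the shares within 1.1-fold were 75.8% of 33 members and 70.1% of 10346 genes, and those within 1.2-fold were 90.9% and 89.8%. The shares of members and of all genes were thus nearer to each other among the better expressed genes.

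The median log2 ratio of knockout to wild type, with 0.1 FPKM added to each sum, was 0.03 over the 40 members and 0.004 over all genes. Over the 24 paternally expressed members with the minimum it was 0.04, with 18 higher and 6 lower in the knockout library, or 75.0% higher. Over the 14 maternally expressed members it was -0.003, with 6 higher and 8 lower, or 42.9% higher. Of all genes 51.2% were higher. The groups follow the known labels, which were not measured in newborn brain. Igf2r was grouped as maternally expressed, although it is known as such outside neurons. Members of 1 locus share control regions, so that these counts are not counts of independent genes, and with 1 library per genotype the difference between the allele groups was not tested.

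**Figure D2:**
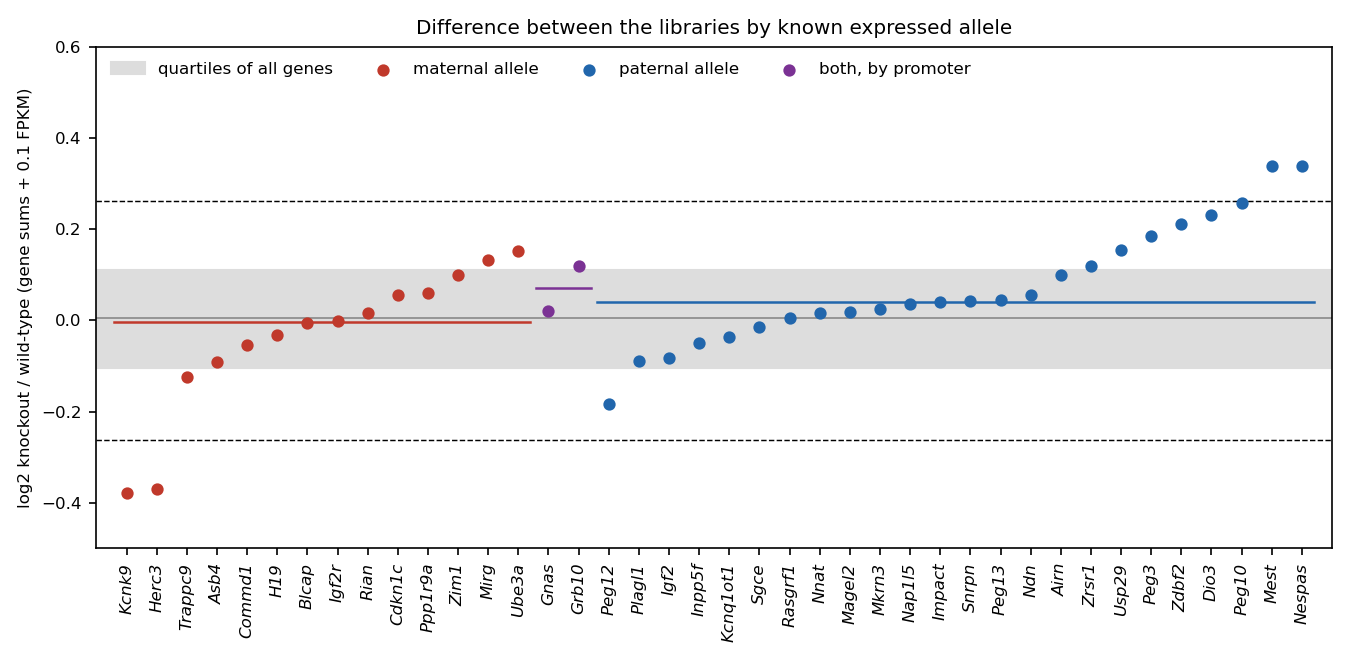
Log2 ratio of knockout to wild type for each of the 40 members, sorted within the known expressed allele, with coloured lines at the group medians. The grey band runs from the lower to the upper quartile of all 15706 genes, and the dashed lines mark 1.2-fold. Mest and Nespas lie above the upper line, Kcnk9 and Herc3 below the lower one, and Peg10 lies just under the upper line.

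Mest (chr6:30723547-30748465, plus strand, paternally expressed) encodes a hydrolase-like protein of embryonic mesoderm and brain, and mice that inherit a mutation from the father are small. Its sum was 96.5 FPKM in the wild-type and 122.1 in the knockout library, a ratio of 1.27. The main 2561-base coding transcript was at 67.4 and 76.8 FPKM, a ratio of 1.14. A 417-base processed transcript from the same start was at 23.8 and 40.6, a ratio of 1.70. Both were higher in the knockout library, but the sum passed 1.2-fold through the short model, and without transcripts under 500 bases the log2 ratio of Mest was 0.20 in place of 0.34. The 250 bases before the Mest start (chr6:30737800-30738049, plus strand, RefSeq, GRCm38.p6) are shown because they lie at its paternally active promoter. Capitals mark CG pairs, the sites of DNA methylation.
Mest promoter: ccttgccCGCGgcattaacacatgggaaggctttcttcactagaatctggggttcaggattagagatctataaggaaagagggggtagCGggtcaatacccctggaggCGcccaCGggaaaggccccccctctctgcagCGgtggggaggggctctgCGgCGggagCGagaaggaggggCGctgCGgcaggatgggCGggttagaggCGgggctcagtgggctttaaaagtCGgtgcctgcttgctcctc
These bases hold 14 CG pairs and the motif TGCCGC or its reverse complement GCGGCA 2 times, the sequence that ZFP57, the zinc-finger protein that holds imprints, binds when methylated. Over the 53 RefSeq promoters of 36 members the median was 10 CG pairs in 250 bases, against 6 over 32851 promoters of all genes. The ZFP57 motif occurred on either strand in at least 1 window of 6 of these 36 members, or 16.7%, against 9.84% of 27025 genes. They were Mest (2 nearly identical windows of 3), Zdbf2 and Meg3 (1 window of 2 each), and Nap1l5, Zim1 and Plagl1 (their only window). Methylation was not measured.

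The locus of Kcnk9, Trappc9 and Peg13 on chromosome 15 held the lowest ratio of the 40 members with the minimum. Kcnk9 encodes a 2-pore potassium channel that sets the resting potential of neurons, and mutations of the maternal copy cause a developmental syndrome in human. Its only transcript was at 13.9 FPKM in wild type and 10.6 in the knockout, a ratio of 0.768, and no choice of transcripts could alter it. Trappc9, a vesicle transport gene with maternal bias in brain, was at 14.0 and 12.9 FPKM, a ratio of 0.917. Peg13, a paternally expressed non-coding RNA inside Trappc9, was at 54.5 and 56.2, a ratio of 1.03. The maternally expressed genes of the locus were thus lower and the paternally expressed one slightly higher in the knockout library. Peg13 lies within Trappc9 on the same strand over 4725 bases, where reads of both cannot be told apart.

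Herc3 and Nap1l5 form a locus of the same layout on chromosome 6, with an intronless gene inside an intron of a larger one. Herc3, a ubiquitin ligase with maternal bias in brain, was at 32.2 FPKM in wild type and 24.9 in the knockout, a ratio of 0.773. Its full-length 4731-base transcript was at 12.3 and 11.4, a ratio of 0.932. The low sum came from short models, such as a 446-base one at 5.69 and 3.25 and a 676-base one at 6.20 and 4.53. Without transcripts under 500 bases the log2 ratio was -0.18 in place of -0.37, inside 1.2-fold. Nap1l5, a nucleosome assembly protein gene expressed from the paternal copy, was at 82.8 and 84.9 FPKM and lay on the opposite strand within Herc3.

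Another 3 loci pair a gene with a paternally expressed gene that lies inside it or overlaps it in part. Blcap, a small membrane protein gene that hosts Nnat, was at 87.2 and 86.9 FPKM, a ratio of 0.997. Commd1, a regulator of copper transport and NF-kB that hosts Zrsr1, was at 34.0 and 32.7 FPKM, a ratio of 0.963, while Zrsr1, a retrogene of a splicing factor, was at 4.73 and 5.14. The value of Commd1 turned on which models were summed, since its 469-base and 473-base coding models went with a 760-base retained intron at 9.84 and 5.84 FPKM, and without models under 500 bases the log2 ratio was -0.41. Igf2r, the receptor that clears IGF2 and is maternally expressed outside neurons, was at 11.9 FPKM in both libraries, with a log2 ratio of -0.001. Airn, the paternally expressed non-coding RNA that silences Igf2r and overlaps it on the opposite strand, was at 2.83 and 3.04 FPKM. None of these genes was past 1.2-fold as a sum over all models.

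Gnas (chr2:174284320-174346744, plus strand) has several start sites that differ in the allele they use. Transcripts were grouped by 5′ ends within 1500 bases. The starts of NESP55, a chromogranin-like protein made from the maternal copy, summed to 17.3 FPKM in the wild-type and 21.6 in the knockout library, a ratio of 1.25. The excess was 1 model of 702 bases, listed at the floor in wild type and at 4.49 FPKM in the knockout. Without it the NESP55 starts were at 17.3 and 17.1, a ratio of 0.989, and their main 2465-base model was at 16.4 and 15.6. Leaving out a model for its floor value in wild type can only lower the ratio, and models of the same start share reads. The starts of XLas, a large form of the G protein subunit made from the paternal copy, summed to 3.19 and 2.29, a ratio of 0.720. Among them a 3719-base model was at 1.94 and 0.336 and a 3729-base model at 0.475 and 1.26, so these models went opposite ways. The exon 1A starts, paternal and known as non-coding, summed to 25.0 and 28.4, a ratio of 1.14. Their main 3903-base model, annotated as coding, was level at 16.0 and 16.1. Models of 791 and 817 bases were higher in the knockout, at 2.57 and 5.33 and at 2.43 and 3.68, and those of 1427 and 832 bases were lower. The starts of Gsα itself, used from both copies in most tissues, summed to 399.4 and 399.5 and made up 89.3% of the wild-type level. The dominant product was thus level between the libraries. The sums of XLas and exon 1A stood on opposite sides of it, but the models within each did not all go the same way.

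Nespas, the paternally expressed antisense RNA that crosses the NESP55 start, was at 4.36 FPKM in wild type and 5.55 in the knockout, a ratio of 1.27. Its 2 expressed transcripts gave 1.29 and 1.25, so that no single model carried the sum. The shorter lies within the span of the longer, so the 2 values may rest on shared reads. Nespas and Gnas overlap over 11117 bases on opposite strands. The NESP55 starts there had a ratio of 1.25 over all models and of 0.989 without the 702-base model. The libraries were strand-specific, but whether the counting used strand is not given in the sources used here, so reads of Nespas and of the overlapping part of Gnas may not have been told apart.

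The promoters of 3 Gnas starts are shown because they are the CpG-rich elements whose outputs are compared above. Each is the 250 bases before the start on chromosome 2, plus strand, RefSeq, GRCm38.p6, with CG pairs in capitals. NESP55 is chr2:174284070-174284319 with 14 CG pairs, exon 1A is chr2:174327499-174327748 with 21, and Gsα is chr2:174329756-174330005 with 29.
NESP55 promoter: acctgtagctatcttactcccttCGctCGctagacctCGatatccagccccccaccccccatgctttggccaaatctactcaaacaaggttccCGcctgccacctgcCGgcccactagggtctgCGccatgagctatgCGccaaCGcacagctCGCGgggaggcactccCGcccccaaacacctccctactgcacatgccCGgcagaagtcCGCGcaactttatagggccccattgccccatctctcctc
exon 1A promoter: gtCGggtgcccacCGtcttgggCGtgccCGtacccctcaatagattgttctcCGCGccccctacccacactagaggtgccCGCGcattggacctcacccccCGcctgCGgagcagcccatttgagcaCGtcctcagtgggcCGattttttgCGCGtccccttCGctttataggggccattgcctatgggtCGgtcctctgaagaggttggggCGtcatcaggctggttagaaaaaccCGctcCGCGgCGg
Gsα promoter: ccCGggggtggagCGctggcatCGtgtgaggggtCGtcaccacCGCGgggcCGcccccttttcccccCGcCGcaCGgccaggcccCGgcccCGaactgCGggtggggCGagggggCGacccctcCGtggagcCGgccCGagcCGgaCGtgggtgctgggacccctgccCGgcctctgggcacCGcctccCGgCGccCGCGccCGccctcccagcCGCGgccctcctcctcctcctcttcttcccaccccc
The Gsα promoter, with the highest summed FPKM, was also the richest in CG pairs of the 3.

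Among other members with several starts, 4 with known start-specific imprinting or long upstream starts are described. Inpp5f, an inositol phosphatase gene, is imprinted through a brain transcript that starts inside the gene and is made from the paternal copy. The full-length starts summed to 7.34 and 8.57 FPKM, and the starts from position 128687546 to 128688489 to 114.2 and 108.9, which was 91.8% of the wild-type level. Grb10, an adaptor that restrains insulin and growth factor signalling, is maternal in most tissues and paternal in neurons from a downstream promoter. Its upstream starts summed to 20.6 and 22.0 FPKM and its starts from 12026324 to 12027971 to 5.66 and 5.51, while a minor start at position 11938616 was at 0.513 and 1.80. Snrpn, a splicing protein gene, had 132.1 and 134.7 FPKM from its main start and 4.47 and 5.85 from the upstream start at position 60140219, a ratio of 1.31. Zdbf2, a zinc-finger gene whose paternal expression promotes feeding and growth of the newborn, was at 11.6 and 13.4 FPKM. Its starts from 63273265 to 63273269 summed to 3.42 and 4.17, a ratio of 1.22. The start at position 63290738 was at 8.14 and 9.23. In none of these 4 genes did the larger start group differ by 1.2-fold, but smaller groups did. Minor starts of other members also differed, such as one of Plagl1 at 2.09 and 0.700 FPKM and one of Commd1 at 9.84 and 5.84.

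**Figure D3:**
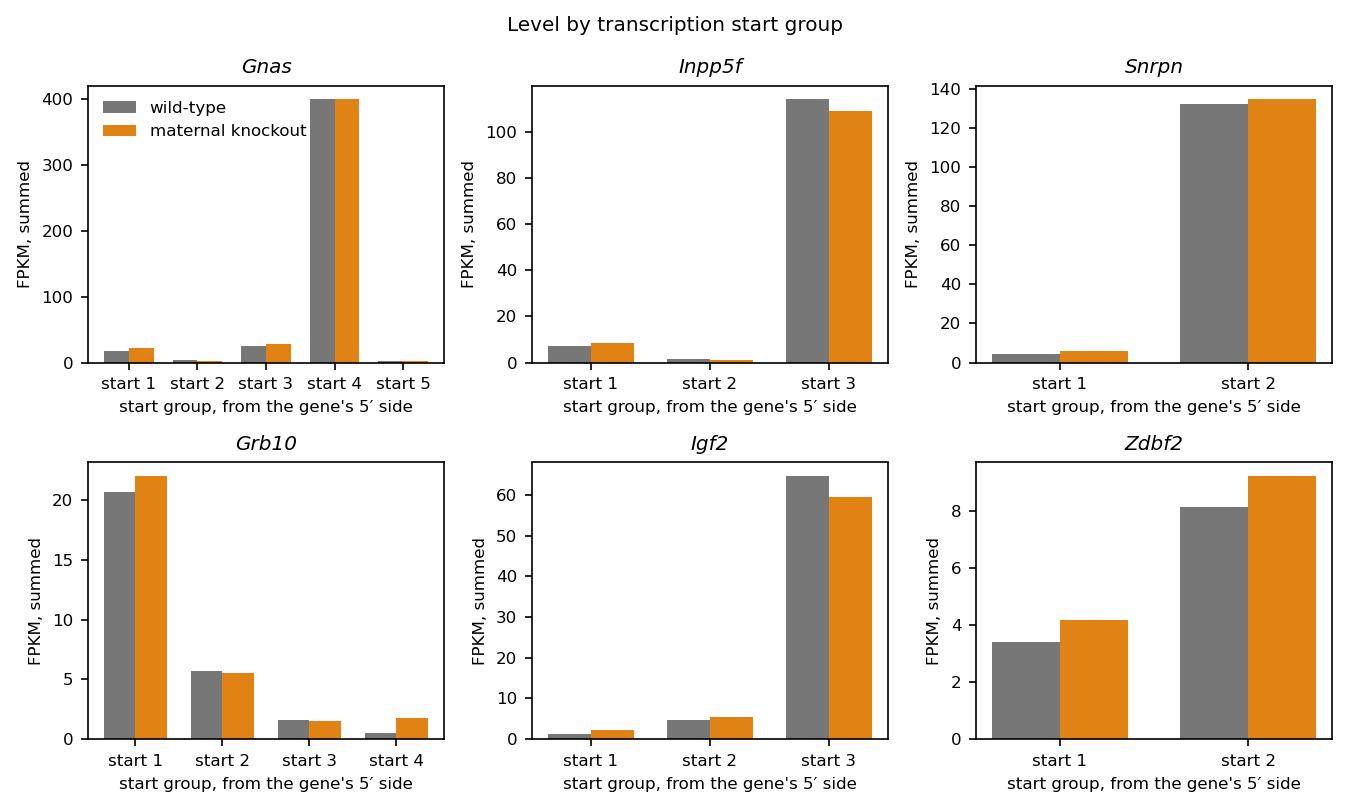
FPKM summed by transcription start group (5′ ends within 1500 bases of each other, groups with at least 2 FPKM over both libraries together) for 6 members, in the wild-type (grey) and maternal knockout (orange) library, 1 library each. In Gnas the groups are NESP55, XLas, exon 1A, Gsα and a start near the 3′ end, and the Gsα bars are at 399.4 and 399.5 FPKM.

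Growth genes of distal chromosome 7 were level. Igf2, a fetal growth factor labelled as paternally expressed, was at 70.9 FPKM in wild type and 66.9 in the knockout. Whether this label holds in brain was not measured. H19, the maternally expressed non-coding RNA that shares its enhancers, was at 66.5 and 65.0. The ratios were 0.944 and 0.978. In brain these genes are known from the choroid plexus and meninges, so the markers of those tissues are given beside them. Of 9 choroid plexus genes 3 were higher and 6 lower in the knockout library. Ttr alone was at 519.7 and 557.2 FPKM, and the other 8 summed to 54.0 and 51.4. The 7 meningeal genes summed to 109.1 and 104.1, with 2 higher and 5 lower. Their part in the level of Igf2 and H19 was not tested, and in pooled bulk RNA fewer cells of a type and less RNA per cell cannot be told apart.

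Next to it, Cdkn1c, a cyclin-dependent kinase inhibitor made from the maternal copy, was at 39.9 and 41.5 FPKM, a ratio of 1.04. Kcnq1ot1, the paternal non-coding RNA that silences this domain, was at 3.46 and 3.38, a ratio of 0.975. Phlda2, a placental regulator, and Slc22a18, both of the maternal copy, did not reach the minimum. Phlda2 was listed at the floor in wild type and at 0.274 FPKM in the knockout, and Slc22a18 at 0.402 and 0.220.

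The Dlk1-Dio3 cluster on chromosome 12 was measured in part. Rian and Mirg, maternally expressed non-coding RNAs that host small nucleolar RNAs and microRNAs, were at 5.41 and 5.47 FPKM and at 27.0 and 29.6 FPKM. Dio3, the enzyme that inactivates thyroid hormone, was at 1.73 and 2.05, a ratio of 1.18. All 3 were slightly higher in the knockout library. Dlk1, which encodes a Notch-like growth regulator, was listed at the floor for its 10 transcripts in both libraries, and Meg3, the maternally expressed RNA next to it, at 0.071 and 0.147 FPKM. Within the interval from Dlk1 to Dio3, 66 of 67 microRNA genes were at the floor in both libraries and 6 of 118 genes reached the minimum. The exception, Gm27379 (chr12:109728821-109728943), was listed at 41.1 FPKM in wild type and at the floor in the knockout. For so short a gene with 1 library per genotype, this contrast is not read as a change.

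A floor value, or one as low as that of Meg3, does not show that Dlk1, Meg3 or Snurf was silent. Snurf, which is encoded on the same RNA as Snrpn, was listed at the floor in both libraries beside Snrpn at 136.6 and 140.6 FPKM, and both overlap over 9601 bases on the same strand. Gapdh, a gene of glycolysis in every cell, was listed at only 14.8 and 9.71 FPKM, far below Actb at 1619 and 1629. How the estimation shared reads among such overlapping or duplicated models was not tested, so these 3 members are named without a fold.

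At the Peg3 locus all 3 members were higher in the knockout library. Peg3, a zinc-finger gene of maternal care and growth, was at 51.8 and 58.9 FPKM, a ratio of 1.14. Usp29, a deubiquitinase gene that shares its promoter region with Peg3 and runs the other way, was at 30.3 and 33.8, a ratio of 1.11. Zim1, a maternally expressed zinc-finger gene, was at 11.5 and 12.4, a ratio of 1.07. The log2 ratios of the 3 spanned only 0.08, from 0.10 to 0.19.

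The Snrpn cluster, the mouse counterpart of the human Prader-Willi and Angelman region, held 5 genes higher and 1 lower of 6 with the minimum. Ube3a, the ubiquitin ligase of Angelman syndrome, maternally expressed in neurons, was at 52.5 and 58.4 FPKM, a ratio of 1.11. Ndn, encoding necdin, was at 71.6 and 74.4. Magel2, a MAGE family gene of the hypothalamus, was at 8.19 and 8.29, and Mkrn3, whose human counterpart restrains puberty, was at 10.6 and 10.7. Peg12 was the only one lower, at 2.37 and 2.08, a ratio of 0.876. Ndn, Magel2, Mkrn3 and Peg12 each have 1 transcript, so their sums do not depend on how reads were shared among models of the same gene.

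Another 6 members also lay within 1.2-fold. Plagl1, a growth-regulating zinc-finger gene, was at 15.5 and 14.6 FPKM. Impact, a regulator of translation, was at 19.1 and 19.6. Rasgrf1, a Ras exchange factor of neurons, was at 9.94 and 9.97, with a log2 ratio of 0.005. Along the Peg10 cluster, Sgce, encoding epsilon-sarcoglycan, was at 13.5 and 13.4, Ppp1r9a, encoding the synaptic protein neurabin, at 26.7 and 27.8, and Asb4, a subunit of a ubiquitin ligase, at 5.10 and 4.79.

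Peg10 (chr6:4747306-4760517, plus strand, paternally expressed), a gene descended from a retrotransposon and needed for the placenta, had the sharpest contrast within a gene. Its sum was 13.2 FPKM in wild type and 15.8 in the knockout, a log2 ratio of 0.26 that lay just inside 1.2-fold. Its 6662-base model was at 12.1 FPKM in wild type and 0.172 in the knockout, while its 6667-base model was at 1.12 and 15.6. The first thus held 91.5% of the wild-type level and 1.09% of the knockout level. The models share their first 1480 bases, and then the 6662-base model leaves out 2 bases at chr6:4755331-4755332 and ends 3 bases earlier. Both are shown around that point (GRCm38, plus strand), with the 2 bases in capitals.
6667-base model: attcgccgccgggaAActccccggccccgc
6662-base model: attcgccgccgggactccccggccccgc
The 2 bases lie in the heptamer GGGAAAC, the slippery sequence at which ribosomes shift frame to join both reading frames of Peg10. The shorter model writes that joined frame as if 2 bases had been skipped in the RNA. The models are the same but for 5 bases, so only reads over these bases tell them apart, and their separate FPKM values are not read as a change. The sum is the value to use for Peg10.

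Over all members, 135 of 295 transcripts had a mean of at least 1 FPKM. Of these, 9 were above 2-fold in the knockout library, or 6.67%, against 4.73% of 33592 transcripts, and 7 were below 0.5-fold, or 5.19%, against 3.86%. Apart from Peg10, the most abundant transcript of every member with the minimum lay between ratios of 0.768 and 1.29. Those past 2-fold outside Peg10 were minor models, in 7 genes whose sums lay within 1.2-fold and in Herc3, whose sum did not. In Usp29 a 2610-base model was at 2.05 and 0.371 FPKM and a 4420-base one at 1.17 and 2.98. In Grb10 a 4755-base model was at 1.93 and 0.246 and a 479-base one at 0.513 and 1.80. In Gnas a 3719-base XLas model was at 1.94 and 0.336, a 791-base one at 2.57 and 5.33, and a 702-base one was at the floor in wild type and at 4.49 in the knockout. In Nnat a 1135-base model was at the floor and at 8.76, and a 404-base one at 2.07 and 0.780. In Herc3 a 418-base model was at 2.12 and 0.784 and a 374-base one had a ratio of 2.01. Peg3 had a 3252-base model at 1.15 and 2.82, Ppp1r9a a 357-base one at the floor and at 2.20, and Plagl1 a 630-base one at 2.09 and 0.700. Of the 16, 14 had a mean under 5 FPKM.

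A second list held other imprinted genes. Of its 38 genes, 37 were in the table and 25 had the minimum, with 4 above 1.2-fold, 1 below and a median log2 ratio of 0.07. Within 1.2-fold were 80.0% of them, against 90.0% of the members and 80.3% of all genes. The highest ratios were those of Kcnq1, the potassium channel gene that Kcnq1ot1 crosses, at 0.769 and 1.69 FPKM, past 2-fold, and Atp10a, a lipid flippase gene, at 1.31 and 1.97. Lowest were Slc38a4, an amino acid transporter gene, at 1.37 and 0.964, and Sfmbt2, a polycomb group gene, at 2.40 and 2.19. All 4 were low in level. Of 13 genes that maintain imprints, 11 had the minimum and none was past 1.2-fold in either direction. Their highest ratios were those of Dnmt3b, a DNA methyltransferase, at 1.43 and 1.70 FPKM, and Smchd1, a chromatin protein, at 17.4 and 20.2. Their lowest were those of Uhrf1, which guides DNA methylation at replication, at 5.62 and 4.89, and Setdb1, a histone methyltransferase, at 18.2 and 16.9.

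The labelled tissue, whole brain, was compared with regional markers, since the extraction protocol in the labels names hippocampus. Hippocampal markers summed to 95.3 FPKM in wild type and 94.1 in the knockout. Cerebellar markers summed to 70.7 and 66.7, of which Zic1 alone was 63.1 and 59.6, with 1 gene higher and 2 lower. Hindbrain markers summed to 13.7 and 10.7, with all 4 hindbrain genes lower. Hypothalamic markers summed to 24.8 and 29.0, of which Avp was 13.5 and 17.0, and 4 of the 7 were higher and 3 lower, among them Hcrt at 2.02 and 0.781. Markers of regions outside the hippocampus were thus present in both libraries. Neuronal markers were at 1344 and 1345. Endothelial and pericyte markers were at 108.3 and 96.2, with all 6 genes lower. Several imprinted genes, among them Magel2, Peg3 and Ndn, are known for hypothalamic expression. The part of these regional differences in the ratios of the members was not tested.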

How the data were processed

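Pooled RNA of 6 brains per genotype was depleted of ribosomal RNA and made into strand-specific libraries, 1 per genotype. Per the labels and the submitters' processing notes, reads were trimmed with Trimmomatic 0.36 and aligned with HISAT2 2.1.0 to GRCm38.p5, and the authors estimated FPKM per transcript with Cuffdiff, whose version and normalization no source used here gives. The deposited FPKM values have 1e-05 as their floor, in place of 0. Their ratios, log2 ratios, p-values and q-values compare 1 library with 1 and were not used. Total reads are not in the table, so depth and counting error are unknown.

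Transcript FPKM were summed per gene, and log2((knockout + 0.1)/(wild type + 0.1)) was computed for genes with a mean of at least 1 FPKM, which understates differences of low genes. Thresholds were 1.2-fold for genes and 2-fold for transcripts. Values of different transcripts of 1 gene are estimates from shared reads. Lengths, types and 3′UTRs of transcripts were read from GENCODE M21, which held 99.5% of the transcripts and 294 of 295 of the members', of which 11 have another span there. Promoters and microRNAs came from RefSeq (GRCm38.p6), where 36 members had a promoter.

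The members, lists and thresholds were chosen with earlier results of these data known. All 45 members are named, with the 2 highest and 2 lowest genes of the lists of other imprinted and of imprint maintenance genes. Also named are the most abundant transcript of members described by transcript, and member transcripts past 2-fold. Actb, Gapdh and Gm27379 were added after their values were seen. Alternatives changed the pseudocount, minimum, scaling and transcripts summed. The computation of the sums and of the threshold calls was checked on simulated data. Whether 1.2-fold lies beyond the variation between libraries of the same genotype was not tested. Python 3.11.15, numpy 2.4.6, pandas 2.3.3 and matplotlib 3.10.9 were used.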

Additional observations from a re-analysis of the deposited data

How the results depend on the processing

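With 1 library per genotype no replicate could be left out, and all values below are descriptions. No paired analysis was possible because there is only 1 library of each genotype. A count was taken as kept within 1.5 times its value, a median within 0.05 on the log2 scale and a single gene within the robust SD of all genes. All 3 medians were kept under every alternative run. With a mean of at least 5 FPKM, 1 member was above 1.2-fold (Mest), 1 transcript was above 2-fold and 1 below 0.5-fold, both models of Peg10. With no minimum, 4 members were above 1.2-fold and 31 transcripts were past 2-fold in each direction. With the minimum on the wild-type library only, 4 transcripts were above 2-fold, and with it on the knockout library only, 0 were below 0.5-fold; both follow from how those minimums select. With the most abundant transcript alone, 1 member was below (Kcnk9), and the members above were Nespas and Peg10, against 10.7% and 11.3% of 15062 genes. An alternative with transcripts of at least 500 bases only was chosen after seeing the data. Its counts stayed at 2 above and 2 below, against 7.17% and 7.48% of 14610 genes. The genes were then Airn and Nespas above and Commd1 and Kcnk9 below. Kcnk9 was below 1/1.2-fold in every alternative, and Nespas was above 1.2-fold wherever its level met the minimum. Kcnk9 has 1 transcript, and both expressed transcripts of Nespas were above 1.2-fold. The alternatives in the transcripts summed could therefore not move either call. Of 473 single-gene values under alternatives, 10 moved, among them Airn to 0.27 without transcripts at the floor in either library. The lack of replicates, of read totals and of allele-specific values limits all results.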
